A study of Mus musculus with 6 samples.

Results

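The Pramel gene family was described across 6 RNA-seq libraries of mouse blastocyst-stage embryos. Its members were chosen by gene name: every gene of the deposited table whose symbol begins with Prame and is not marked as a pseudogene copy by "-ps", which gave 49 of 49993 genes. The symbols alone set the membership, but the family was put forward with earlier results of these data known, so its levels are given as a description. Of the 49 members, RefSeq annotates 48 as protein-coding and 1, Pramel28, as a pseudogene.

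The study asked which genes accompany the shortening of telomeres when embryos are cultured. All mothers, whichever the group, had been superovulated with pregnant mare serum gonadotrophin (10 IU) and human chorionic gonadotrophin (hCG, 10 IU, given 48 h after the first) before natural mating. In the in vivo group (3 libraries), embryos developed in the mother and were flushed as blastocysts on day 3.5 from the uterus. In the in vitro group (3 libraries), zygotes fertilized in the mother were taken from the oviduct 19 to 21 h after hCG, freed of cumulus cells with hyaluronidase and grown to blastocysts in KSOM, a potassium-enriched embryo medium, at 37 °C under 5% CO2. The labels give no strain and do not say how old the cultured embryos were when frozen, and blastocysts of both groups were picked for their stage and morphology. The labels describe each library as 1 inner cell mass, name blastocysts as the tissue and embryonic stem cells as the cell type, while the design text speaks of RNA from whole blastocysts. Whether each library of a group had its own mother is not in the labels, so the p-values below measure only the spread between these libraries.

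PRAME proteins are built of leucine-rich repeats and are made mainly in the germ line and the early embryo. In the mouse the family has expanded into arrays of near copies, and some of its proteins serve as substrate receptors of ubiquitin ligases that contain cullin 2. PRAMEL7, the best studied in this stage, is known from the inner cell mass and from embryonic stem cells, where it lies downstream of LIF and STAT3 and promotes the breakdown of UHRF1, a factor needed to maintain DNA methylation.

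Library totals ran from 6918288 to 17643429 counts, of which Rn18s-rs5, a gene for 18S ribosomal RNA, made up 16.7% to 41.7%. A limit of 3 counts, which is what a count of 0 allows, corresponded to 0.216 to 0.527 CPM (counts per 1000000, on library totals scaled by trimmed mean of M values), and it covers counting error only. In vivo libraries 1 and 2 resembled each other closely (Spearman's rho of 0.942 across tested genes, which are not independent replicates), whereas in vivo library 3 reached 0.786 and 0.793 with them, less than in vitro library 2 did (0.873 and 0.857). All 7 trophectoderm markers had counts in each library, although the libraries are labelled as inner cell mass; they summed to 562 to 1189 CPM in vivo, against 893 to 1553 CPM in vitro. The 6 epiblast markers summed to 325 to 408 CPM in vivo, against 270.3 to 479.8 CPM in vitro, and the 6 primitive endoderm markers to 169 to 299 CPM and 294 to 484 CPM. Of the 7 trophectoderm markers, 6 had a positive log2 fold change, as did 2 of the 6 epiblast markers. The groups did not overlap for 1 gene of each set, Gata3 and Sox2, both higher in vitro (background 9.27%). All 6 primitive endoderm markers had a positive log2 fold change, where 50.2% of all tested genes had a negative one. The groups did not overlap for 4 of these 6 markers (background 9.27% higher in vitro). DESeq2 called 2 of the 6, Sox7 and Foxa2 (adjusted p of 4.53e-07 and 2.65e-06, background 1.65% higher). Limma-voom called the same 2 (adjusted p of 0.0392 and 0.0492, background 0.517% higher). By edgeR's quasi-likelihood test neither was called (adjusted p of 0.306 for both, background 0%). Of 7 cumulus and granulosa cell markers, 5 (Amh, Fshr, Cyp19a1, Has2 and Ptx3) were at 0 in every library and the sum was at most 1.05 CPM; of 4 blood markers, Hbb-bt and Ptprc were at 0 and the sum was at most 3.22 CPM. The 6 uterine epithelium markers summed to 19.3 to 69.3 CPM in vivo, against 37.1 to 86.8 CPM in vitro, with Ltf and Pgr at 0. The part of these cell types in the values below was not tested, and in bulk RNA fewer cells of a type and less RNA per cell cannot be told apart.

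The counts were spread very unevenly within the family. Of the 49 members, 12 had 0 counts in all 6 libraries, 23 had a total of 1 to 99, and 14 had 100 or more; those 14 were also the ones that passed the filter on low counts. Pramel7, Pramel4, Pramel6 and Pramel5 together held 75.2% of the family's 37983 counts. The members at 0 included the 3 on the X chromosome, Prame itself, Pramel and Pramel3, and the single member on chromosome 12, Pramel51. Chromosome 4 carried 25 members, of which 7 had 100 or more counts and 5 had none, and chromosome 5 carried 18, of which 5 had 100 or more and 3 had none. Both members on chromosome 2, Pramel6 and Pramel7, were among the 4 most counted.

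The family as a whole summed to 680 CPM, 639 CPM and 500.3 CPM in in vivo libraries 1, 2 and 3, and to 382 CPM, 666 CPM and 410.3 CPM in in vitro libraries 1, 2 and 3. The means were 606.5 ± 94.3 CPM in vivo, against 486 ± 157 CPM in vitro (SD, n = 3 each), and the groups overlapped because in vitro library 2 lay above 2 of the in vivo libraries. As a share of all counts the family took between 0.0314% in in vitro library 1 (95% Wilson interval 0.0301% to 0.0328%) and 0.0945% in in vivo library 1 (0.0926% to 0.0965%). These totals include ribosomal RNA genes, which took 18.4% and 24.4% of in vivo libraries 1 and 2, the libraries of highest family share, and 37.8% to 47.8% of the other 4. Counts were found for 22, 23 and 16 members in the in vivo libraries and for 21, 20 and 18 members in the in vitro libraries. The most abundant member was not the same in all libraries: Pramel4 led in in vivo libraries 1 and 2 (22.3% and 27.4% of family counts), Pramel7 in in vivo library 3 and in vitro library 1 (40.7% and 41.3%), Pramel5 in in vitro library 2 (30.2%) and Pramel6 in in vitro library 3 (26.3%).

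The contribution of the chromosomes varied unequally. The chromosome 2 pair stayed within 186 to 293 CPM over all 6 libraries, the chromosome 4 members within 149 to 392 CPM, and the chromosome 5 members ran from 10.9 to 118 CPM. The chromosome 5 members summed to 117, 118 and 57.4 CPM in the in vivo libraries and to 10.9, 87.4 and 30.7 CPM in the in vitro libraries. Their share of the family was 17.1%, 18.5% and 11.5% in vivo and 2.85%, 13.1% and 7.49% in vitro. In vitro library 2 lay above in vivo library 3 on both scales, so the groups overlapped.

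**Figure D1:**
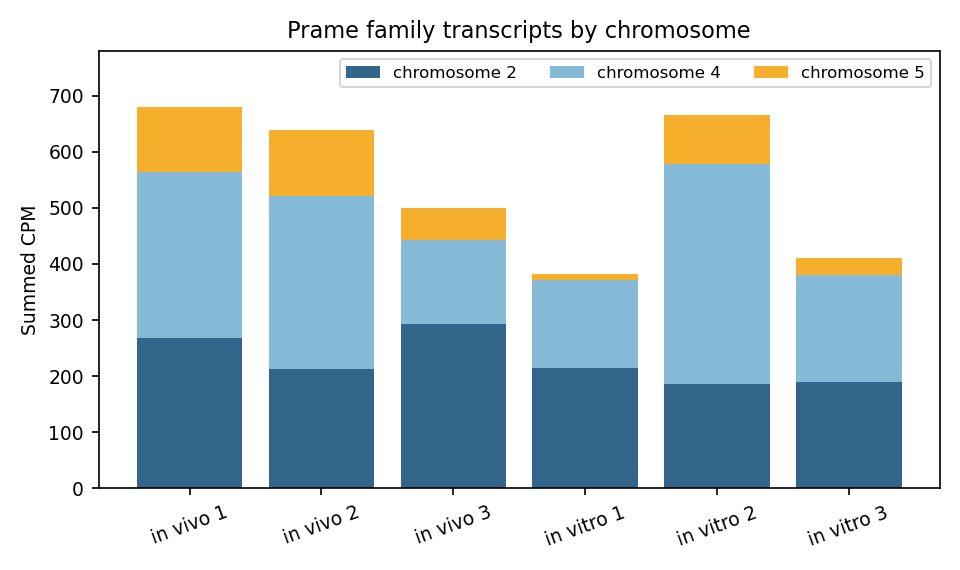
Stacked bars give the summed level of the family in each of the 6 libraries in CPM, divided by the chromosome that carries the members. The chromosome 2 pair keeps a similar height in all bars (186 to 293 CPM), while the chromosome 5 segment is thinnest in in vitro library 1 (10.9 CPM) and thickest in in vivo library 2 (118 CPM).

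Counts were compared between groups with edgeR's quasi-likelihood test and Benjamini-Hochberg adjustment over all 14301 genes that passed the filter, 14 of them members. None of the 14 members was called at an adjusted p below 0.05 (background: 0% of all tested genes lower and 0% higher in vitro), none had an unadjusted p below 0.05 (background: 5.08% lower and 5.11% higher), and none had groups that did not overlap (background: 10.0% lower and 9.27% higher). Their adjusted p-values ran from 0.624 to 0.970 and their lowest unadjusted p was 0.144. DESeq2 called none of these 14 either (adjusted p of 0.400 to 0.974; background 1.35% lower and 1.65% higher), nor did limma-voom with sample quality weights (adjusted p of 0.0856 to 0.926; background 0.287% lower and 0.517% higher). Of the 14 members, 9 (64.3%) had a log2 fold change below 0, meaning a lower fitted level in vitro, against 50.2% of all tested genes, and the median of the 14 was -0.40 against -0.01 over all tested genes. With library totals alone as scaling, 11 of 14 members and 63.9% of all tested genes were below 0. The standard errors of the members' log2 fold changes were 0.35 to 1.63 with a median of 0.87, beside a median of 0.71 over all tested genes.

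**Figure D2:**
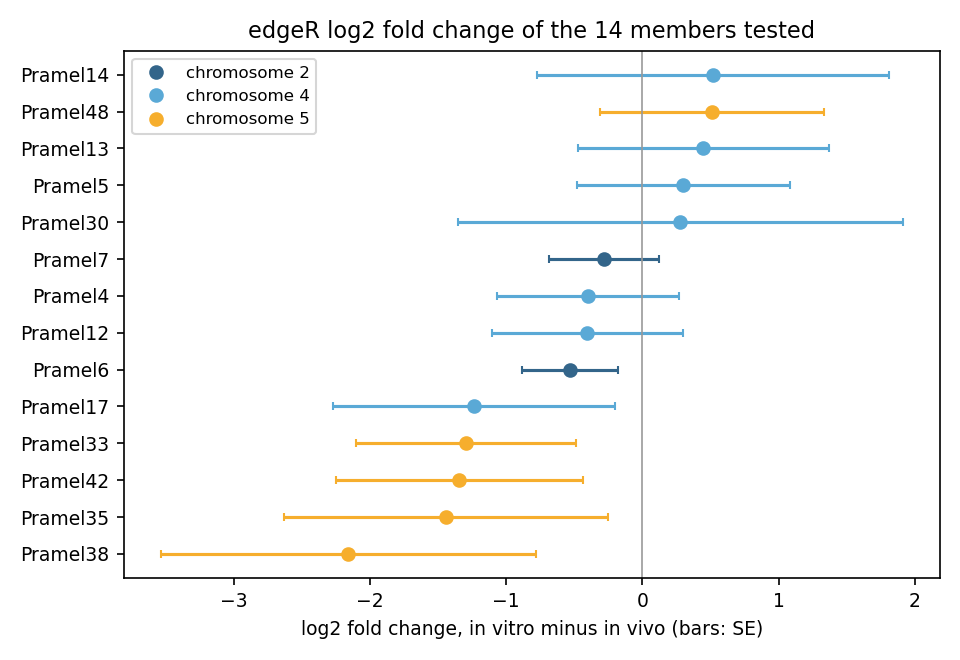
Points give edgeR's log2 fold change of in vitro over in vivo for each of the 14 members tested, with bars of 1 standard error and colours for the chromosome. The values run from -2.16 (Pramel38) to 0.52 (Pramel14), the bars are shortest for Pramel6 and Pramel7, and 4 of the 5 chromosome 5 members stand at the negative end.

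Pramel6 and Pramel7 lie side by side on chromosome 2 and are transcribed away from each other within 0.0218 Mb (GRCm38, chr2:87489088-87510865). Their transcripts share almost no sequence with other genes: 0% of the 50-base words of the Pramel6 transcript and 0.442% of those of Pramel7 occur in any other gene of the GENCODE M21 annotation. Of the 4 most counted members, they are therefore the 2 whose counts are least open to reads from copies.

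Pramel7 measured 131.5, 87.1 and 203.8 CPM in the in vivo libraries and 157.5, 107.9 and 82.0 CPM in the in vitro libraries. In vivo library 3 was the highest and in vitro library 3 the lowest, and the groups overlapped widely. The log2 fold change was -0.28 ± 0.40 (SE) with an adjusted p of 0.859 by edgeR's quasi-likelihood test, and it was 0.087 without in vivo library 3. Pramel6, whose protein has like PRAMEL7 been tied to low DNA methylation in embryonic stem cells, measured 136.7, 124.7 and 89.7 CPM in vivo, against 56.4, 78.6 and 107.7 CPM in vitro. Its 2 highest libraries were in vivo 1 and 2 and its 2 lowest were in vitro 1 and 2, while in vitro library 3 lay above in vivo library 3. In vitro minus in vivo, the log2 fold change was -0.53 ± 0.35 with an adjusted p of 0.643 by the same edgeR test.

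The 2 neighbours did not keep 1 ratio. Counts of Pramel6 per count of Pramel7 were 1.04, 1.43 and 0.440 in vivo and 0.358, 0.729 and 1.31 in vitro. Pramel6 exceeded Pramel7 in in vivo libraries 1 and 2 and in in vitro library 3, and lay below it in the other libraries.

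The chromosome 4 members fall into a large array of 21 over 1.01 Mb (GRCm38, chr4:143394441-144408467), a small one of 3 over 0.108 Mb (chr4:101834969-101943183), and a single member elsewhere. The genes with 100 or more counts in the large array were Pramel4, Pramel5, Pramel13, Pramel12, Pramel30 and Pramel14, and Pramel17 was the one in the small array.

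Pramel4 and Pramel5 have related promoters: 60.7% of the 12-base words in the 250 bases before their RefSeq starts are shared. Pramel4 measured 151.9, 174.8 and 24.3 CPM in vivo, against 54.6, 148.7 and 62.6 CPM in vitro. In vivo library 3 was the lowest of all 6 although its group held the 2 highest. The log2 fold change was -0.40 ± 0.67 with an adjusted p of 0.886 by edgeR's quasi-likelihood test. It was -0.87 without in vivo library 3 and -1.01 without in vitro library 2. Without in vivo library 2 it was -0.0005, without in vitro library 1 -0.14, and without in vivo library 1 or in vitro library 3 -0.19. As a limit, 92.8% of its 50-base words also occur in other genes and 91.4% in 1 gene of the same array, Gm13102, so reads of these 2 genes could have been exchanged or left out by the authors' counting.

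Pramel5 measured 80.2, 83.0 and 53.9 CPM in vivo, against 53.4, 201.0 and 11.9 CPM in vitro. The cultured libraries held both the highest and the lowest value, and the in vivo values lay between them. In vitro minus in vivo, the log2 fold change was 0.30 ± 0.78 (adjusted p = 0.930 by edgeR's quasi-likelihood test), and without in vitro library 2 it was -1.16. Counts of Pramel4 per count of Pramel5 ran from 0.451 in in vivo library 3 to 5.26 in in vitro library 3, with 1.90 and 2.11 in in vivo libraries 1 and 2, and 27.1% of the Pramel5 words occur in other genes.

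Pramel14 and Pramel30 are near copies of each other in opposite orientation within the array. Their promoters share 79.9% of 12-base words, and the start of Pramel7 on chromosome 2 shares 13.4% with both. The 250 bases before each start (RefSeq, GRCm38.p6, printed 5′ to 3′ on the gene's strand) are shown because they carry this likeness across 2 chromosomes. Capitals mark words of 12 bases found in both Pramel14 and Pramel30 in the first 2 lines, and words also found in Pramel14 in the third. Pramel14 is chr4:143994370-143994619 on the minus strand, Pramel30 is chr4:144329999-144330248 on the plus strand and Pramel7 is chr2:87492419-87492668 on the minus strand.
Pramel14: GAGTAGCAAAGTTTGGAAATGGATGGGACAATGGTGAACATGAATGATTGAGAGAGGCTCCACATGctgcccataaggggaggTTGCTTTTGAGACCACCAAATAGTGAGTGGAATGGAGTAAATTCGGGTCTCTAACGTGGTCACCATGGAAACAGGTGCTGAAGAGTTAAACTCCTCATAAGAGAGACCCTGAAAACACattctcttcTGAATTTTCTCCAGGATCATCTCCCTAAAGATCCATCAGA
Pramel30: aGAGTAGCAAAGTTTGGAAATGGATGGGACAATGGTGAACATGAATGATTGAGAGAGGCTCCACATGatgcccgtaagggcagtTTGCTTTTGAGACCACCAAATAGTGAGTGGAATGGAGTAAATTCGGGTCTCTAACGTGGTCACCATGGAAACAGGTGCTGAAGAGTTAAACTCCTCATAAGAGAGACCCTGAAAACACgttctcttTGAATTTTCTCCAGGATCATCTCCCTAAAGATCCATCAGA
Pramel7: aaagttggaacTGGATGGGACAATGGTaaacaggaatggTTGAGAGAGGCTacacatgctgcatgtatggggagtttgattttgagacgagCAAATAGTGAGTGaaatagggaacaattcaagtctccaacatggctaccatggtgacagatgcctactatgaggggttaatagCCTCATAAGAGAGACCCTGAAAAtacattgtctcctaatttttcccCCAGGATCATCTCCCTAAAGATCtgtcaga

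The Pramel14 and Pramel30 lines are capitals over nearly their whole length, and the Pramel7 line has several shorter runs of them, one of which lies close to the start. Pramel30 measured 20.8, 15.7 and 0 CPM in vivo, against 0.176, 9.77 and 34.2 CPM in vitro. Pramel14 measured 14.1, 9.22 and 0.144 CPM in vivo, against 1.58, 8.60 and 23.4 CPM in vitro. Both were near 0 in in vivo library 3 and in in vitro library 1 and highest in in vitro library 3, so each group held low and high libraries. Pramel7, by contrast, was highest in those 2 libraries in which Pramel14 and Pramel30 were lowest, 203.8 CPM and 157.5 CPM.

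The log2 fold changes were 0.28 ± 1.63 for Pramel30 and 0.52 ± 1.29 for Pramel14, with adjusted p of 0.970 and 0.927 by edgeR's quasi-likelihood test. Both signs depended on single libraries and on the scaling: without in vitro library 3 the values were -1.25 and -0.60, and with library totals alone -0.29 and -0.045. All 50-base words of Pramel30 that occur in another gene (73.8%) occur in Pramel14. The same holds for those of Pramel14 (73.5%) and Pramel30, so their counts are not separate measurements. Pramel4 had the same pair of lowest libraries; this pattern, picked after the values were seen, held for 3 of 14 members (21.4%; background 11.3% of tested genes).

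Pramel13 and Pramel12 share no 50-base word with any other gene. Pramel13 measured 4.63, 2.73 and 41.5 CPM in vivo, against 24.2, 14.8 and 27.6 CPM in vitro. In vivo library 3 was the highest of the 6 and its group also held the 2 lowest, so the difference within the in vivo group exceeded that between the groups. The log2 fold change was 0.45 ± 0.92 with an adjusted p of 0.908 by edgeR's quasi-likelihood test.

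Without in vivo library 3 the log2 fold change of Pramel13 was 2.59, with an adjusted p of 0.173 by the same test, and without in vivo library 2 it was -0.057. Pramel12 measured 17.5, 15.8 and 13.2 CPM in vivo, against 4.22, 7.20 and 23.7 CPM in vitro. Its in vivo libraries lay close together, inside the range of the in vitro libraries. In vitro minus in vivo, the log2 fold change was -0.40 ± 0.70 (adjusted p = 0.888, same edgeR test), and it was -1.43 without in vitro library 3 and -0.0016 without in vitro library 1.

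Pramel17, in the small array, measured 3.14, 4.25 and 13.7 CPM in vivo, against 5.27, 0.882 and 2.88 CPM in vitro, again with in vivo library 3 at the top and the groups overlapping. Its log2 fold change was -1.24 ± 1.04 (adjusted p = 0.733 by edgeR's quasi-likelihood test), and it was -0.30 without in vivo library 3.

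Among members of the large array with under 100 counts, Pramel31, Pramel29 and Pramel1 had the most. Pramel31 had 75 counts in in vitro library 1 (13.2 CPM) and 0 in the other 5 libraries. Its level in the in vitro group was at least 36.3-fold higher than a floor of 3 counts summed over the in vivo libraries, but 1 library gave all of it. It did not pass the filter of the edgeR fit. Without that filter edgeR's quasi-likelihood test gave an adjusted p of 0.0313 (background 183 of 27882 genes called higher). DESeq2 gave Pramel31 an adjusted p of 6.45e-10 (background 1.65% higher).

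Without in vitro library 1, Pramel31 had no counts at all. Pramel29 measured 0.706, 0.561 and 0.0719 CPM in vivo, against 0, 0.441 and 3.40 CPM in vitro, with 26 of its 49 counts in in vitro library 3. Pramel1 measured 0.471, 2.48 and 2.59 CPM in vivo, against 0, 0.588 and 0 CPM in vitro; in vitro library 2 lay above in vivo library 1. It was not tested by edgeR, and DESeq2 gave an adjusted p of 0.406.

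**Figure D3:**
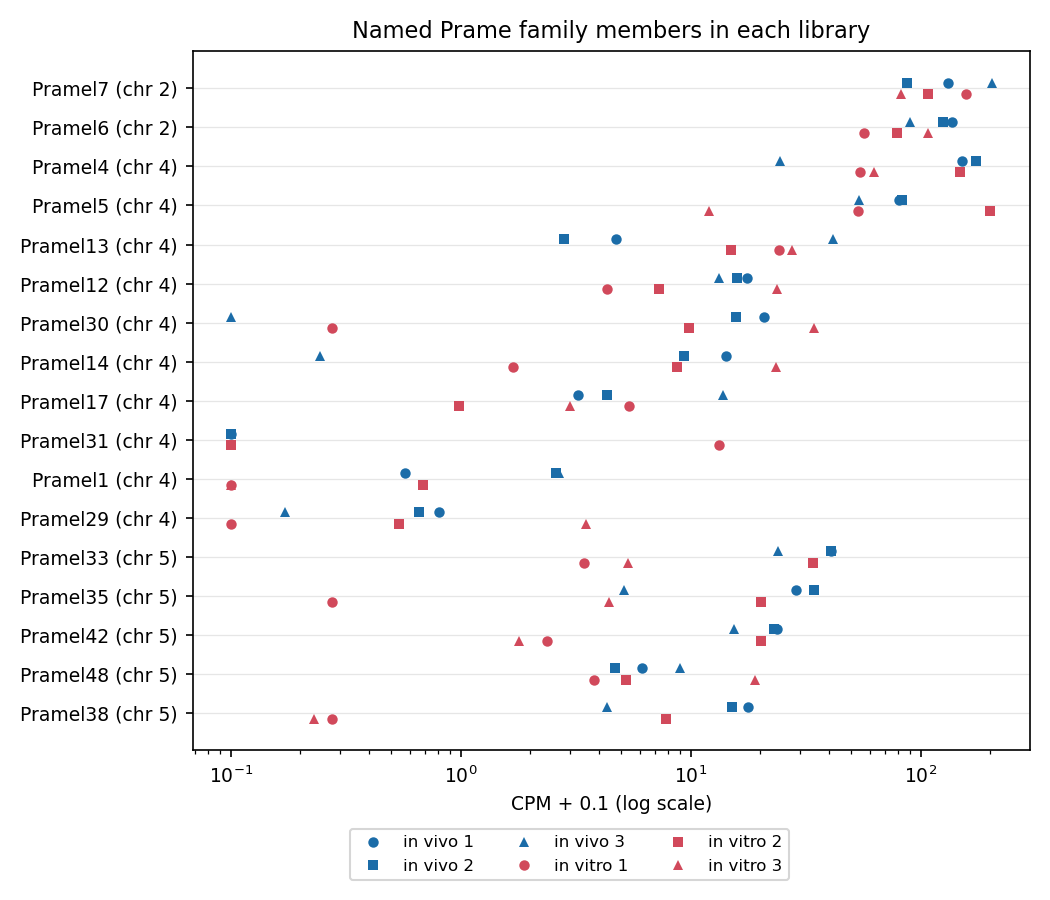
Each row is 1 named member with its chromosome, and each point its level in 1 library in CPM plus 0.1 on a log axis; blue is in vivo, red is in vitro, and the shape gives the replicate. The 2 chromosome 2 members stay between 56.4 and 203.8 CPM, whereas Pramel14 and Pramel30 are near 0 in in vivo library 3 and in vitro library 1, and Pramel33, Pramel35, Pramel38 and Pramel42 are lowest in in vitro libraries 1 and 3.

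The chromosome 5 array spans 2.25 Mb (GRCm38, chr5:93481827-95736173) and holds 18 members among 22 other genes. Of the 18, 10 fall into 2 groups by promoter. In Pramel33, Pramel35, Pramel38 and Pramel48, with 1881, 1173, 578 and 494 counts in all, pairs share 43.1% to 94.98% of the 12-base words in the 250 bases before the start. In Pramel37, Pramel39, Pramel43, Pramel46, Pramel49 and Pramel50, with 0 to 3 counts each, pairs share 75.3% to 100% of these words. Pramel40 and Pramel45 had an entry but joined neither group, and Pramel34, Pramel36, Pramel41, Pramel42, Pramel44 and Pramel47 had none in the table used.

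These promoters (RefSeq, GRCm38.p6, 5′ to 3′ on the gene's strand) are shown because counted and uncounted members of 1 array carry different sequence. In the first 2 lines capitals mark words of 12 bases found in all 4 of Pramel33, Pramel35, Pramel38 and Pramel48. In the third they mark matches to TATAAA, the TATA box, and to GGGTGTGG, a CACCC-type sequence of the kind KLF factors bind. Pramel33 is chr5:93536332-93536581 on the minus strand, Pramel48 is chr5:95456556-95456805 on the plus strand and Pramel37 is chr5:94070546-94070795 on the minus strand.
Pramel33: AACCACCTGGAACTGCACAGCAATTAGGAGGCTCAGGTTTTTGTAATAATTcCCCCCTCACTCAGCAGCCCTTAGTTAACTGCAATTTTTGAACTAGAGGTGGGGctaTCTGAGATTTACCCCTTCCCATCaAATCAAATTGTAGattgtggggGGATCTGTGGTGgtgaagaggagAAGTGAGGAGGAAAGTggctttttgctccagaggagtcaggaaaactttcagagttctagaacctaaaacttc
Pramel48: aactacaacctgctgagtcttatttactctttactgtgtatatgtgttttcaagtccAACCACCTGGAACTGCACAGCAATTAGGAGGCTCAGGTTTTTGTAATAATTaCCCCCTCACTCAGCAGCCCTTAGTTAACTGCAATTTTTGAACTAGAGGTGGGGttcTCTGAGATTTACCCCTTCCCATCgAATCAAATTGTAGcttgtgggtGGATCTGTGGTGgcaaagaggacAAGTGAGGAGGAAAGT
Pramel37: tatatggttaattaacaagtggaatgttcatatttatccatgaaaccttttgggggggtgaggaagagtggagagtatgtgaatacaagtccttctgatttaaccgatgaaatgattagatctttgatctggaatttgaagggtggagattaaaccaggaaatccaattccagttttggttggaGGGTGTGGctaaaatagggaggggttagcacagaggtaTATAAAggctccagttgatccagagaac

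Both motifs were searched on both strands of the 250 bases, and they were picked after earlier results were known. TATAAA occurred in 13 of the 39 members with a promoter entry (33.3%; 12.4% of all 32851 promoters) and GGGTGTGG in 12 of 39 (30.8%; 3.20% of all promoters). Of the 12 entries of members with 100 or more counts, 0 held TATAAA and 0 held GGGTGTGG, while of the 27 entries of members with fewer counts 13 and 12 did, 9 of them with both. Members with shared promoters are copies and not independent cases. The pattern TTCNNNGAA, as bound by STAT factors, was found in 0 of 39 (7.02% of all promoters), and the octamer ATGCAAAT in 0 of 39 (1.60%). A match describes letters only, and no match says only that these letters are not in this window.

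The low counts of the Pramel37 group stand beside a limit of the counting. All 50-base words of Pramel37, Pramel50, Pramel36 and Pramel49 occur in another gene (100%), as do 97.1% of those of Pramel39, 96.3% of Pramel46 and 94.4% of Pramel43. The sources used here do not give how reads with several matches were treated, so a low level and discarded reads cannot be told apart for these genes. High sharing also occurred among counted members: Pramel33 and Pramel35 share 94.98% and 95.17% of their words and had 1881 and 1173 counts. The median share was 73.6% in the 14 members with 100 or more counts, 47.3% in the 23 with 1 to 99 and 52.6% in the 12 with none.

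**Figure D4:**
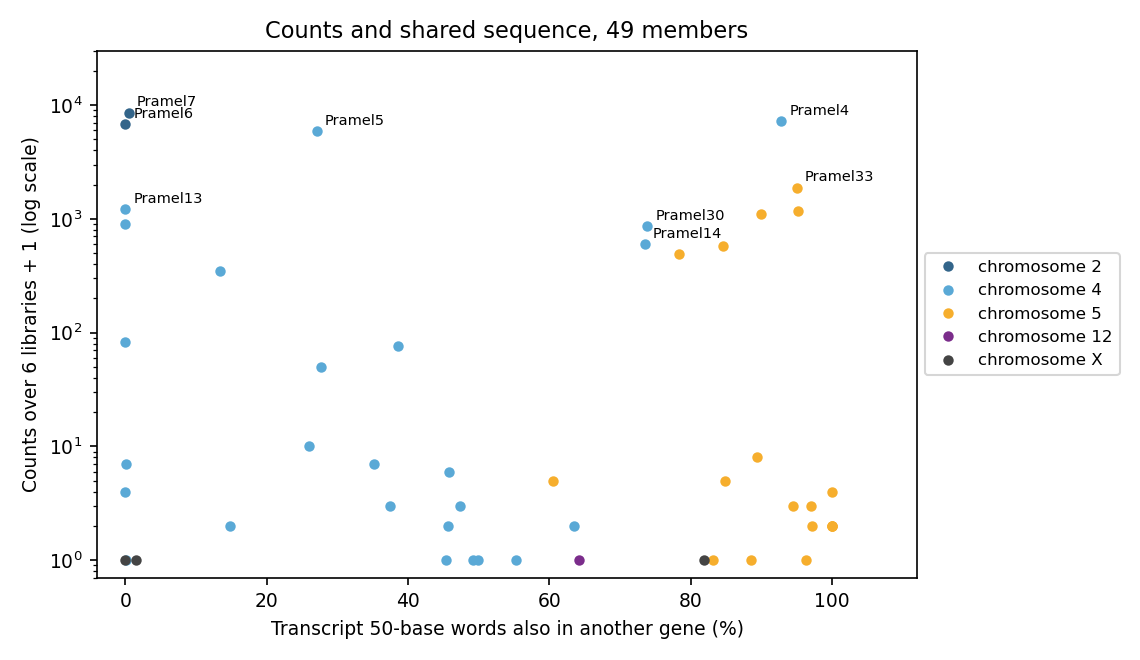
Each point is 1 of the 49 members; the horizontal axis gives the percentage of its transcript's 50-base words found in another gene, and the vertical axis its counts over 6 libraries plus 1 on a log scale, coloured by chromosome. Members with few counts occur at all degrees of sharing, and of the 4 most counted members Pramel6 and Pramel7 stand at the unshared end while Pramel4 stands at 92.8%.

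Pramel33 measured 40.7, 40.8 and 23.9 CPM in vivo, against 3.34, 33.9 and 5.23 CPM in vitro. In vitro libraries 1 and 3 were the lowest, and in vitro library 2 lay among the in vivo libraries. The log2 fold change was -1.30 ± 0.81 with an adjusted p of 0.624 by edgeR's quasi-likelihood test. Without in vitro library 2 it was -3.04, with an adjusted p of 0.259 by the same test. It was -0.83 without in vitro library 1 and -0.89 without in vitro library 3.

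Pramel35 measured 28.7, 34.3 and 5.03 CPM in vivo, against 0.176, 20.2 and 4.31 CPM in vitro. Pramel42 measured 23.5, 22.8 and 15.4 CPM in vivo, against 2.28, 20.1 and 1.70 CPM in vitro. Pramel38 measured 17.6, 15.0 and 4.24 CPM in vivo, against 0.176, 7.72 and 0.131 CPM in vitro. As for Pramel33, in vitro 1 and 3 were the 2 lowest libraries for each of these 3, and in vitro 2 lay inside the range of the in vivo libraries.

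The log2 fold changes were -1.44 ± 1.19 for Pramel35, -1.34 ± 0.91 for Pramel42 and -2.16 ± 1.37 for Pramel38, with adjusted p of 0.729, 0.654 and 0.631 by edgeR's quasi-likelihood test. Without in vitro library 2 they were -3.32, -3.38 and -6.25, with adjusted p of 0.377, 0.259 and 0.259. Without in vitro library 1 they shrank to -0.87, -0.90 and -1.62, and without in vitro library 3 to -1.12, -0.86 and -1.60. With Pramel5, these 4 made up the 5 of 14 members (35.7%) whose lowest pair of libraries was in vitro 1 and 3, a pattern held by 14.1% of all tested genes. It was picked after the values were seen. Because 87.3% of the words of Pramel33 occur in Pramel35 and 79.7% of those of Pramel42 occur in Pramel33, their counts are not separate measurements.

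Ratios within the array were uneven all the same. Counts of Pramel33 per count of Pramel42 were 1.73, 1.79 and 1.55 in vivo and 1.46, 1.69 and 3.08 in vitro. Those of Pramel33 per count of Pramel35 were 1.42, 1.19 and 4.74 in vivo and 19.0, 1.68 and 1.21 in vitro. Pramel35, with 1 count in in vitro library 1, thus had its lowest counts relative to Pramel33 in in vivo library 3 and in vitro library 1, while the ratio to Pramel42 stood apart in in vitro library 3 alone.

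Pramel48, further along the array, differed in its order of libraries. It measured 6.04, 4.57 and 8.92 CPM in vivo, against 3.69, 5.14 and 19.0 CPM in vitro, with in vitro library 3 the highest of all. In vitro minus in vivo, the log2 fold change was 0.51 ± 0.82 (adjusted p = 0.877 by edgeR's quasi-likelihood test), and without in vitro library 3 it was -0.55. Of its 50-base words 78.4% occur in other genes, and 75.1% occur in Gm3286 of the same array.

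Levels were compared between genes per kilobase of exon on the primary assembly. Pramel7 stood first with 75.7 ± 31.6 CPM per kb in vivo and 62.3 ± 20.6 in vitro, followed by Pramel6 with 56.3 ± 11.8 and 39.0 ± 12.4, Pramel4 with 48.6 ± 33.7 and 36.8 ± 21.7, and Pramel5 with 33.7 ± 7.48 and 41.3 ± 46.3 (SD, n = 3 each). These 4 overlapped with their neighbours in this order in both groups. Below them came Pramel33 with 18.003 ± 5.00 CPM per kb in vivo and 7.26 ± 8.79 in vitro. All 3 in vivo values of Pramel5 (25.1 to 38.6 CPM per kb) lay above those of Pramel33 (12.2 to 20.9), but in vitro their ranges overlapped. The other 9 tested members had means over all 6 libraries from 9.47 (Pramel35) down to 2.54 CPM per kb (Pramel17), and each overlapped with the next in both groups.

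**Figure D5:**
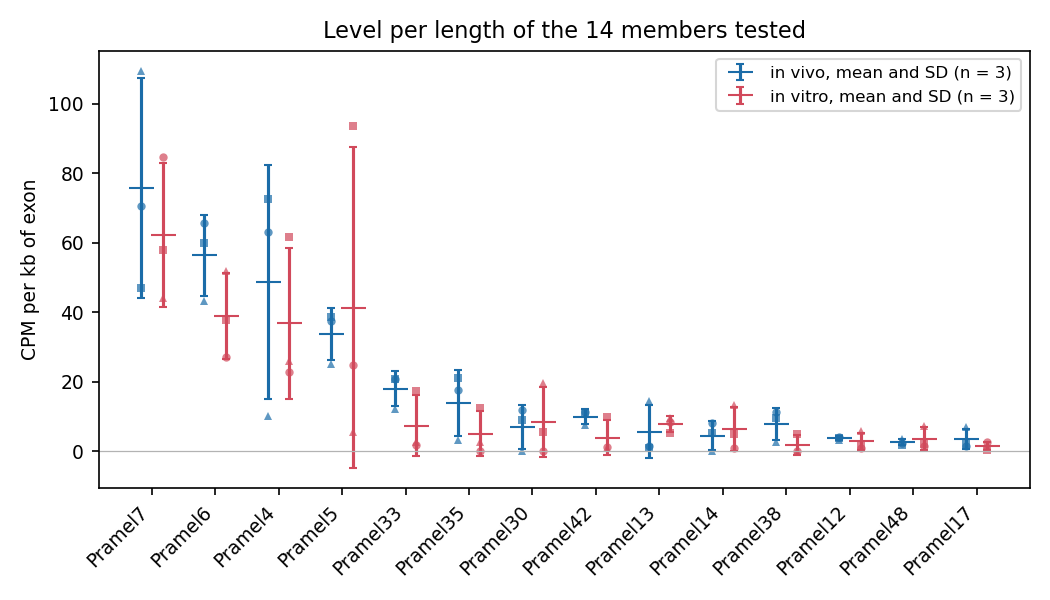
For each of the 14 tested members in order of mean level, small points give single libraries in CPM per kb of exon, and crosses the mean with 1 SD (n = 3 per group; blue in vivo, red in vitro). The first 4 members, Pramel7, Pramel6, Pramel4 and Pramel5, stand above the rest in mean level, and the widest spread is that of Pramel5 in vitro.

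Genes tied to the family were read from lists chosen with earlier results known. The oogenesins, PRAME-related genes of the oocyte, were nearly absent: Oog1 had 1 count in in vivo library 3, Oog3 had 1 count in in vitro library 2, and Oog2 and Oog4 had none. Of 22 measured genes of the 2-cell stage programme, 13 had counts and 2 were tested. These 2 were Dppa2 (321 ± 66.1 CPM in vivo, 205 ± 80.7 in vitro, log2 fold change -0.64 ± 0.37) and Dppa4 (86.4 ± 24.2 and 70.9 ± 15.9, -0.29 ± 0.35), both activators of that programme, with adjusted p of 0.599 and 0.827 by edgeR's quasi-likelihood test. DESeq2 called 1 gene of the list, Tdpoz2, named here after its values were seen (adjusted p = 0.0418, background 1.65% higher). Tdpoz2 had 6, 3 and 39 counts in the cultured libraries against 0 in each in vivo library.

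Among 7 measured genes of the machinery with which PRAMEL7 works, the log2 fold change was above 0 for 5 and below 0 for 2, the median was 0.36, and none passed the threshold by edgeR or DESeq2. Uhrf1, the target of PRAMEL7, measured 133 ± 30.01 CPM in vivo, against 170.0 ± 37.4 CPM in vitro (log2 fold change 0.36 ± 0.32, adjusted p = 0.754 by edgeR's quasi-likelihood test). Cul2, the scaffold of the ligase, measured 75.8 ± 5.08 and 58.5 ± 6.79 CPM; its groups did not overlap (background 10.0% lower), but the adjusted p was 0.725 (-0.37 ± 0.30).

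Of 9 tested genes of the LIF and STAT3 pathway, which lies upstream of Pramel7 in stem cells, the log2 fold change was above 0 for 8 and the median was 0.89; 0 were called by edgeR and 1, Lifr, by DESeq2 (background 1.65% higher). Lifr, the receptor subunit, measured 11.4 ± 5.58 CPM in vivo, against 47.4 ± 12.3 CPM in vitro (2.05 ± 0.52, adjusted p = 0.321 by edgeR's quasi-likelihood test and 0.0159 by DESeq2). Stat3 measured 49.2 ± 25.1 and 107 ± 3.32 CPM (1.13 ± 0.44, adjusted p = 0.450 by edgeR). For both genes all 3 cultured libraries lay above all in vivo libraries (background 9.27%), while Pramel7 overlapped and had a log2 fold change of -0.28 ± 0.40.

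Of 7 tested oocyte genes, the log2 fold change was above 0 for 3 and below 0 for 4, the median was -0.16, and none was called by edgeR or DESeq2. Dppa3, a maternal factor that keeps UHRF1 from chromatin, measured 655 ± 222 CPM in vivo, against 322 ± 147 CPM in vitro (-1.02 ± 0.40, adjusted p = 0.440 by edgeR's quasi-likelihood test), and Khdc3, of the oocyte's subcortical complex, 944 ± 343 and 574 ± 283 CPM (-0.72 ± 0.45, adjusted p = 0.625). Zp3, of the egg coat, measured 3.42 ± 1.27 and 0.465 ± 0.806 CPM (-2.75 ± 1.69, adjusted p = 0.617), and Tle6, of the same subcortical complex, 2.36 ± 0.807 and 4.57 ± 0.374 CPM (0.95 ± 0.96, adjusted p = 0.783). The groups did not overlap for either gene, with Zp3 lower in vitro and Tle6 higher (background 10.0% and 9.27%).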

How the data were processed

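Per the labels' protocols, RNA came from a microextraction kit and libraries from a transposase-based kit without strand marking, so reads of overlapping antisense genes cannot be told apart. The authors deposited raw counts per gene, 1 column per library. FastQC 0.11.2, DESeq2 and the build GRCm39 appear in the submitters' processing notes, but the coordinates of all 49 members equal RefSeq on GRCm38.p6, which is used here. Aligner, counter, strand setting and the handling of multiple matches were not given in the sources used here.

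Libraries were grouped by title. The counts were fitted over all genes with edgeR 4.0.16 (R 4.3.3): filter on low counts by group, trimmed mean of M values, robust quasi-likelihood F-test, two-sided, Benjamini-Hochberg adjustment and a threshold of 0.05. The standard error of an edgeR log2 fold change was not fitted directly. It was taken as the absolute log2 fold change divided by the square root of F. The scripts were tested on simulated data. DESeq2 1.42.0, limma 3.58.1 and other scalings and filters were run as alternatives. Exon lengths per kilobase came from the primary assembly, since 6 members also have exons on alternate or patch sequences. Shared sequence was measured on GENCODE M21 transcripts, and promoters came from RefSeq, with entries for 39 members. Members and lists were chosen with earlier results of these data known. Named were Pramel1 and Pramel4 to Pramel7, other members with a mean of at least 1 CPM in a group, and up to 4 genes of smallest p per related list.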

Additional observations from a re-analysis of the deposited data

How the results depend on the processing

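No member was called by edgeR's quasi-likelihood test as run, and none when any 1 library was left out (0 to 0 members, and 0 to 0 genes in all). Over all genes, 391 of 27882 were called without the filter on low counts, and 473 of 15796 with an adjusted p by DESeq2. Limma-voom called 115 of 14301. The newer quasi-likelihood form of edgeR, an alternative chosen after the data were seen, called 3 of 14301. Of 37 members fitted, 1 was called without the filter and 1 by DESeq2, in both cases Pramel31, which had counts in 1 library. DESeq2 gave some of the 37 no adjusted p. The summed family level kept a negative log2 ratio, -0.63 to -0.16 without 1 library, and so did the median of the tested members, -0.82 to -0.23. With all libraries the values were -0.32 and -0.40. Libraries of the same group differed by a pooled SD of 0.351 in the log2 family sum. For the members' median log2(CPM + 1) that SD was 0.856. Neither value exceeded its SD in size, but these SDs describe single libraries and not differences between group means. The SD of 0.856 also belongs to another measure than the median log2 fold change, so neither comparison is a test.

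Of the 14 members tested, 8 kept their sign under the alternatives run and 6 did not. Among the 8, Pramel4 came to -0.0005 without in vivo library 2 and Pramel12 to -0.0016 without in vitro library 1. There were 15 alternatives for 13 members and 14 for Pramel17, which did not pass the stricter filter. With library totals alone, which moved the median of all genes to -0.31 and that of the members to -0.80, Pramel14 was at -0.045 and Pramel30 at -0.29. With limma-voom, Pramel14 was at -0.39, Pramel30 at -1.39, Pramel5 at -0.22 and Pramel7 at 0.075. Pramel13 was at 2.31 ± 0.59 by limma-voom (adjusted p = 0.0856), against 0.45 by edgeR. The log2 fold changes with 1 library left out ran from -0.057 to 2.59 for Pramel13, -0.60 to 1.23 for Pramel14, -1.25 to 0.88 for Pramel30, -0.55 to 0.89 for Pramel48, -1.16 to 0.82 for Pramel5 and -0.56 to 0.087 for Pramel7. The cause of these changes was not tested.

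Deviations of libraries of the same replicate number correlated at -0.10, 0.07 and -0.06, and those of different numbers at -0.08 to 0.12. With so few libraries per group, these values cannot settle whether the libraries were paired. With the replicate number as a block, 0 genes were called, the median of the members was -0.53, Pramel30 was at -0.50 and Pramel5 at -0.49. Depth limits the members with few counts, since 3 counts correspond to 0.216 to 0.527 CPM.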

Other observations

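The arrays that hold the Pramel genes also contain other genes, of which 11 had 100 or more counts: 4 in the large and 3 in the small chromosome 4 array, 3 in the chromosome 5 array and 1 on X. Of these 11, 9 had a log2 fold change below 0 and 2 above 0, and their adjusted p ran from 0.403 to 0.920 by edgeR's quasi-likelihood test. The groups did not overlap for 1 gene lower in vitro, LOC100044633 (-2.20 ± 1.36; background 10.0%), and 1 higher, Nxf7 on X (3.56 ± 1.20; background 9.27%). Nxf7 measured 2.74, 2.32 and 0 CPM in vivo, against 19.0, 26.5 and 14.6 CPM in vitro, beside X-linked members with no counts.

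Among the 11, Gm13102, Gm16513, Gm3183 and Gm3286 were each the gene sharing most sequence with a member of 100 or more counts. Gm13102, which holds 91.4% of the 50-base words of Pramel4, measured 132, 153 and 19.8 CPM in vivo, against 30.6, 102 and 33.7 CPM in vitro, and its lowest library, in vivo 3, was also the lowest for Pramel4. Gm16513, which holds 83.9% of those of Pramel35, measured 34.4, 38.2 and 14.4 CPM in vivo, against 0.351, 22.0 and 3.79 CPM in vitro. Gm3183, which holds 83.3% of those of Pramel42, measured 31.5, 32.9 and 11.4 CPM in vivo, against 0.878, 17.7 and 1.96 CPM in vitro. Both were lowest in in vitro libraries 1 and 3, as were Pramel35 and Pramel42. Because most words of Pramel4, Pramel35 and Pramel42 occur in these genes, the counts of genes and members are not separate measurements.

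Gm3286, which holds 75.1% of the words of Pramel48, measured 6.43, 4.97 and 2.01 CPM in vivo, against 1.05, 7.35 and 1.05 CPM in vitro. It was highest in in vitro library 2, whereas Pramel48 was highest in in vitro library 3. The remaining 5, Gm13130, Gm13082, Gm12792, C130073F10Rik and Gm12791, had log2 fold changes of 1.07, -1.004, -1.95, -0.23 and -0.98.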
